A study of Mus musculus with 2 samples.

Results

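Nonsense-mediated decay (NMD) transcripts are annotated messages whose stop codon lies well upstream of the last exon junction. The 505 described here are GENCODE M21 transcript models of the type nonsense_mediated_decay that received at least 1 long read in mouse heart. They were taken from 19884 annotated models with reads, and from 7186 annotated NMD models in all, of which 7.03% had a read. They belong to 454 host genes, of which 410 carried 1 such model, 40 carried 2 and 4 carried 3 or more. Because the models were chosen on reads, their number and their share of a gene's reads are descriptions. The NMD label is a property of the annotation and does not record whether a molecule was degraded.

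The study sequenced full-length cDNA of total RNA from heart, 2 µg per library, with long reads. The labels give 1 group, female B6CASTF1/J mice aged 2 months, which are first-generation hybrids of a C57BL and a CAST strain, with no treatment and 2 replicates. The biosample labels number the animals 3 and 4, but the library text names animal 3 for both and both share a donor identifier. The labels thus leave unsettled if 2 animals were used, and p-values, which compare counts of 1 library with 1, cover counting error only.

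Replicate 1 held 905154 reads and replicate 2 held 745375. Of these, 652698 and 535492 fell on annotated models, called Known reads below, which were 76.0% and 75.7% of the reads of annotated genes. CPM is reads per 1000000 Known reads. The level of a single read was 1.53 CPM in the first library and 1.87 CPM in the second. A count of 0, taken as 3 reads, allows up to 4.596 and 5.602 CPM. A long read counts 1 cDNA molecule whatever its length, so counts were not divided by length. The NMD models had a median length of 1761 bases, against 2443 for the most read other annotated model of the gene. Of 478 with such a model, 102 were the longer. What length adds to the shares given below was not tested. Intervals are 95% Wilson intervals and cover counting error only. All 8 cardiac muscle markers had reads. Of 6 skeletal muscle genes, Myh1, Myh2, Myh4 and Tnnt3 had 0 in both libraries, and Actn3 and Ckm had reads, with sums of 7339 and 7375 reads per 1000000 reads of annotated genes over the 6. Ckm, the muscle creatine kinase, is also a gene of heart muscle. The summed levels of 5 red blood cell genes were 32227 and 29577 reads per 1000000 reads of annotated genes, beside 44733 and 47961 for the cardiac genes. Their part in the NMD reads was not tested. In tissue RNA, fewer cells of a type and less RNA per cell cannot be told apart.

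NMD is a translation-dependent pathway. A ribosome that terminates while an exon junction complex is still bound downstream allows the helicase UPF1 and its partners to mark the message for decay. Splicing events that place a stop codon early, such as poison exons in splicing factor genes, use it to lower gene output. Reads count the RNA present at harvest, so production and decay of a model cannot be told apart here.

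The sequences that set the frame of the most read models are shown first, because the annotated stop and the splice change define each model. All come from GENCODE M21 transcripts on GRCm38 (mm10), the C57BL/6J reference, in the sense of the gene and 5′ to 3′. The CAST allele of these hybrid animals is not shown by them. In the first set, 5 models carried an exon that their coding model lacks, and the exon is printed from its first base to the in-frame stop, in capitals.
E2f6-204: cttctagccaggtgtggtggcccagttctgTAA
Yaf2-202: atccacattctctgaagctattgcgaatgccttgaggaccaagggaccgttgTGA
Thap12-202: atgcattttgcagaggcatcagaaaacTAA
Actg1-206: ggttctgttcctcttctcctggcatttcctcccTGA
Myoz2-203: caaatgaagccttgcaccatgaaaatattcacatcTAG

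These exons lie at chr12:16813847-16813912 on the plus strand (E2f6, 66 bases), chr15:93317539-93317608 on the minus strand (Yaf2, 70 bases) and chr7:98707937-98708031 on the plus strand (Thap12, 95 bases). The Actg1 exon is at chr11:120347492-120347536 (45 bases) and the Myoz2 exon at chr3:123033192-123033363 (172 bases), both on the minus strand. The E2f6 and Actg1 exons are multiples of 3 in length, so they leave the frame unchanged and carry the stop themselves.

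The second set shows a shift of a splice site. Each line holds 15 bases before the junction in lower case and 15 bases after it in capitals, for the NMD model and then for the coding model of the gene.
Cyth2-203: cctaaagctgggtacGGGGCCGGGTGAAGA
Cyth2-202: ggctcctaaagctggGGGGCCGGGTGAAGA
Tesc-202: gtatagaaatgtaaaGTGGTGGAGGAGCTG
Tesc-201: gaagagtatagaaatGTGGTGGAGGAGCTG
Tnnc1-203: ccgcatgtttgacaaATGAGCTGAAGATGA
Tnnc1-202: ccgcatgtttgacaaAAACGCTGATGGCTA

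Cyth2-203 uses a donor 4 bases further into the intron, Tesc-202 a donor 5 bases further, and Tnnc1-203 an acceptor 26 bases further into the exon. None of these is a multiple of 3. The third set gives 30 bases around the annotated stop, in capitals, of 2 models in which no frame was shifted and of 1 with a retained intron.
Smpx-201: cccaaaggtgaacagTAGtcgaaaggacac
Chpt1-207: tacaagcatattgacTGActagtagcccaa
Ddx5-208: tccagagggctaggtTAGtacaaactcgaa

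Smpx-201 and Chpt1-207 end at the same stop as the coding model of their gene, with 52 and 72 bases to the last exon junction. The Ddx5-208 stop lies inside the retained intron.

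NMD models held 1320 of the Known reads in replicate 1 (0.202%) and 1148 in replicate 2 (0.214%, interval 0.202 to 0.227), a mean of 0.208% ± 0.00859 (SD, n = 2). The ratio of the shares, replicate 2 over replicate 1, was 1.06 (0.979 to 1.15), which Fisher's exact test did not separate from 1 (two-sided exact p = 0.1505, adjusted p = 0.323 over 15 transcript types). Within the host genes alone, NMD models held 3.57% and 3.68% of the Known reads. Retained-intron models held 1.66% and 1.41% of Known reads, and protein-coding models 95.5% and 96.0%. Fisher's exact test did separate the ratios of these types, 0.846 and 1.005, from 1 (adjusted p = 1.26e-28 and 7.71e-36).

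The reads were concentrated on few models. The single most read, Smpx-201, held 12.3% and 10.02% of all NMD reads. The 5 most read held 30.3% and 29.9%, and the 20 most read 49.8% and 51.4%. At the other end, 235 of the 505 had 1 read in total, 105 had 2, and 37 had 10 or more.

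Smpx-201 was the most read NMD model. Smpx encodes the small muscle protein of the X chromosome, a cytoskeletal protein of striated muscle. The model spans chrX:157698910-157752591 on the plus strand with 6 exons. It had 163 reads in replicate 1 and 115 in replicate 2, of 173 and 121 Known reads of the gene, or 94.2% (89.7 to 96.8) and 95.04% (89.6 to 97.7). Its level was 232 ± 24.7 CPM (SD, n = 2). The protein-coding Smpx-203 had 8 and 6 reads, so Smpx-201 led in the counts of both libraries. Its introns and its 255-base coding sequence are the same as those of the protein-coding Smpx-208, whose stop also lies 52 bases from the last junction and which had 0 reads in either library. The 2 annotated models differ only at their ends, by 63 and 2 bases, and carry different types in GENCODE M21. Splicing does not tell them apart, so the type given to these reads rests on the authors' counting.

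Smpx was not alone in this. For 9 NMD models the intron chain equalled that of a protein-coding model, and for 7 of these the coding sequence was also the same: Smpx-201, Tbrg4-211, Prmt6-202, Abraxas1-209, Kcna6-201, Srsf2-202 and Primpol-208. All 9 coding twins had 0 reads in both libraries, and splicing does not tell any of the 9 models from its twin. The 9 were taken from NMD models with reads. Among NMD models without a read, 71 also had the intron chain of another annotated transcript, 38 of them in genes with Known reads. Reads on the twins of those models were not examined. Apart from Smpx-201 the highest of the 9 was Tbrg4-211, with 4 and 4 reads. A further 13 NMD models had introns that form a contiguous part of another annotated transcript, and 483 had an intron chain of their own.

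Ddx5-208 came next. Ddx5 encodes a DEAD-box RNA helicase that takes part in splicing and transcription. The model spans chr11:106781548-106788494 on the minus strand and keeps an intron that Ddx5-201 removes. It had 74 reads in replicate 1 and 107 in replicate 2, beside 244 and 203 on the coding Ddx5-201. It held 23.3% (19.0 to 28.2) and 34.5% (29.4 to 39.97) of the gene's Known reads, intervals that did not overlap.

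E2f6-204 and Cyth2-203 were, with Smpx-201, the NMD models that outnumbered every other Known model of their gene in both libraries, among genes with at least 20 Known reads in each. E2F6 is a transcriptional repressor of the E2F family. E2f6-204 had 50 and 49 reads beside 46 and 41 on the coding E2f6-201, which is 50% (40.4 to 59.6) and 52.1% (42.1 to 61.9) of the gene. Its coding sequence is 138 bases long, against 816 in the coding model, and its stop lies 724 bases before the last junction. Cytohesin 2, the product of Cyth2, activates ARF GTPases. Cyth2-203 had 56 and 37 reads beside 13 and 11 on Cyth2-202, or 80.0% (69.2 to 87.7) and 74.0% (60.4 to 84.1). Its level was 77.4 ± 11.8 CPM, and the intervals of the 2 libraries overlapped.

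In Chpt1, which encodes choline phosphotransferase 1 of phosphatidylcholine synthesis, the NMD model has an intron within the last exon. Chpt1-207 had 57 and 35 reads of 521 and 439, or 10.9% and 7.97%. In Ivns1abp, which encodes a kelch-repeat protein, the exon of Ivns1abp-204 starts 962 bases earlier than in the coding model. It had 34 and 39 reads, or 6.36% and 7.77%. In both genes coding models held most of the Known reads, led by Chpt1-201 with 275 and 242 reads and Ivns1abp-201 with 454 and 423.

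Tescalcin, the product of Tesc, is a calcium-binding EF-hand protein. Tesc-202 had 30 and 24 reads beside 98 and 87 on Tesc-201, or 22.1% and 20.5%, with a level of 45.4 ± 0.81 CPM. Yaf2, a partner of the factor YY1 and of Polycomb proteins, had 18 and 15 reads on Yaf2-202, or 31.6% (21 to 44.5) and 44.1% (28.9 to 60.5). Thap12-202, of a THAP-domain gene, had 12 and 18 reads, or 25% and 31.0%. Slc35b1, a nucleotide transporter of the endoplasmic reticulum, gave 7 and 11 reads on Slc35b1-202, or 28.0% (14.3 to 47.6) and 52.4% (32.4 to 71.7). In each of these 4 genes the intervals of the libraries overlapped, and the last rests on 25 and 21 Known reads.

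**Figure D1:**
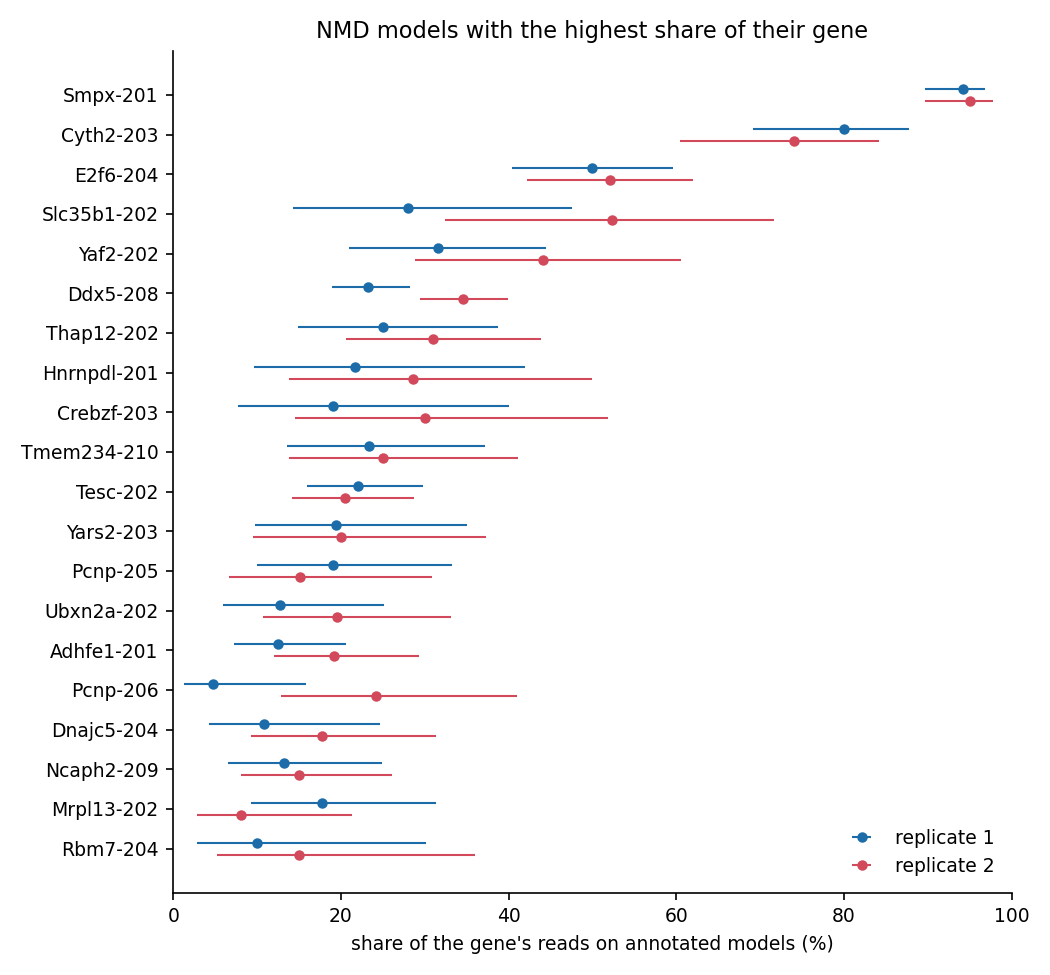
Share of the gene's Known reads (%, x axis) on each of the 20 NMD models with the highest mean share, in genes with at least 20 Known reads in each library; points are replicate 1 and replicate 2, and bars are 95% Wilson intervals. Smpx-201, Cyth2-203 and E2f6-204 are at 50% or more in both libraries, and the bars of the remaining models overlap between libraries except for Ddx5-208.

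Several models came from genes of contraction and energy metabolism. Troponin C, encoded by Tnnc1, is the calcium sensor of the thin filament. Tnnc1-203 had 39 and 27 reads, which placed it among the 20 most read NMD models, but Tnnc1-202 had 5761 and 4282. Its share was 0.672% (0.492 to 0.918) and 0.626% (0.431 to 0.910), the same within counting error. Myoz2 encodes a Z-disc protein that binds calcineurin. Myoz2-203 had 7 reads in replicate 1 and 17 in replicate 2, or 1.30% and 3.48% of the gene.

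Genes of respiratory complex I subunits also carried NMD reads, with shares on both sides of the median of 1.96% given further on. Ndufs6-202 had 19 and 12 reads (4.48% and 4.03%), Ndufa7-202 had 16 and 8 (2.79% and 2.11%) and Ndufb8-205 had 5 and 3 (0.575% and 0.460%). Adhfe1, a mitochondrial transhydrogenase, was higher, with 12 and 15 reads on Adhfe1-201, or 12.5% and 19.2%. Ppargc1a-201, of the coactivator PGC-1α that promotes mitochondrial biogenesis, had 2 and 4 reads of 29 and 32. The intervals of these shares overlapped between libraries in every one of these genes.

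The other models among the 20 most read came from genes of varied function. Rbm38, an RNA-binding protein, gave 16 and 15 reads on Rbm38-206 (7.41% and 9.09%). Gpcpd1, which breaks down glycerophosphocholine, gave 12 and 14 on Gpcpd1-213 (8.33% and 7.11%). Actg1, cytoplasmic gamma actin, gave 10 and 15 on Actg1-206 (4.50% and 8.15%). Genes such as Actg1, Rbmx and the ribosomal proteins have near-identical copies elsewhere in the genome, and how reads were assigned to them was decided by the authors' counting. Dcaf11, a substrate receptor of a CUL4 ubiquitin ligase, had 14 and 8 reads on Dcaf11-216, and its 2 NMD models together held 22.3% and 16.1% of the gene.

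Some genes spread their NMD reads over more than 1 model. Tmem234, which encodes a small transmembrane protein, had 6 such models, the most of any gene. Together they had 24 of 47 Known reads in replicate 1 (51.1%, 37.2 to 64.7) and 14 of 36 in replicate 2 (38.9%, 24.8 to 55.1). Tmem234-210 led with 11 and 9 reads, beside 19 and 22 on the coding Tmem234-201. Crebzf, a bZIP transcription factor, had 3 NMD models with 9 of 21 and 10 of 20 Known reads, or 42.9% and 50%. Pcnp, a nuclear PEST protein, had 2, of which Pcnp-205 had 8 and 5 reads and Pcnp-206 had 2 and 8.

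Further models with high shares had at most 9 reads in a library. Hnrnpdl-201 had 5 and 6 reads (21.7% and 28.6%), from a gene of an RNA-binding protein, and its added exon follows the stop of the coding model. Yars2-203, of the mitochondrial tyrosyl-tRNA synthetase gene, had 7 and 6 reads (19.4% and 20.0%), and Mrpl13-202, of a mitochondrial ribosomal protein gene, had 8 and 3 (17.8% and 8.11%). Ubxn2a-202, Dnajc5-204, Ncaph2-209, Icmt-204 and Rbm7-204 had shares from 10% to 19.6% in either library. Each of their intervals spanned more than 10 percentage points, and none separated the libraries.

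For the share of the gene, 226 NMD models in 194 genes with at least 20 Known reads in each library were described. The median of the mean share was 1.96% (quartiles 1.00 and 5.11), and the range was 0.0147% to 94.6%. Of the 226, 55 were under 1%, 113 from 1% to 5%, 35 from 5% to 10%, 15 from 10% to 25% and 8 at 25% or more. Models with a low total weigh on this median, since 1 read in a gene of 50 is already a share of 2%. Among 139 of these models with at least 2 reads the median was 4.17%. In 27 models the NMD model held every Known read of its gene, but none of these had more than 6 reads. One of them, Lmf1-206, had 3 and 3 Known reads while the gene had 40 and 37 reads over all its models.

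**Figure D2:**
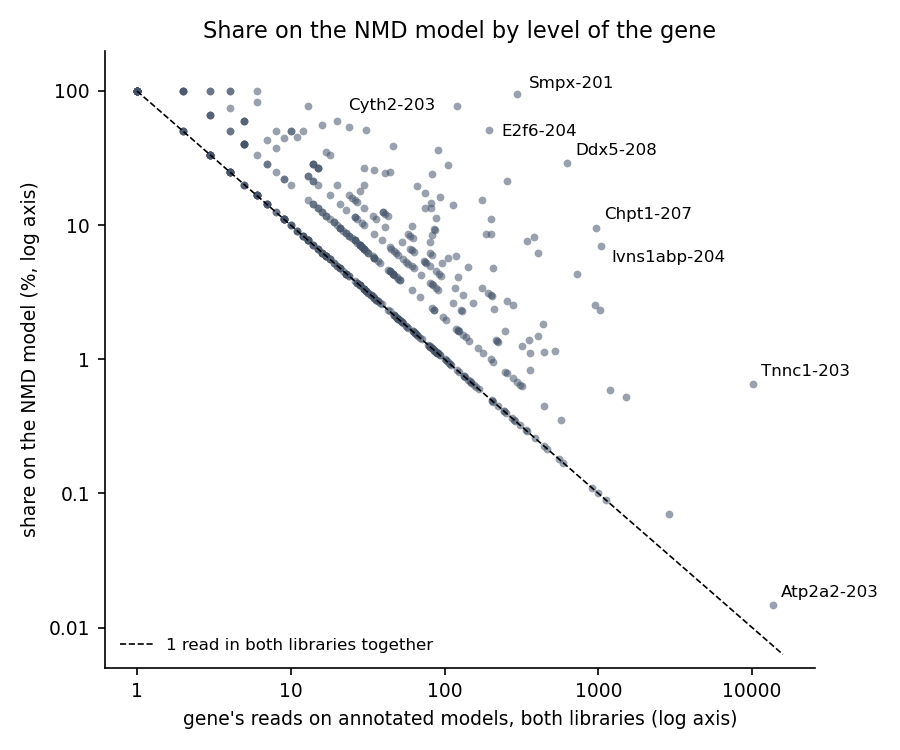
Share of the gene's Known reads on each NMD model (%, log axis, y) against the gene's Known reads over both libraries (log axis, x), 1 point per model. The dashed line is the share that a single read gives, on which the 235 models with 1 read lie. Smpx-201, E2f6-204, Cyth2-203 and Ddx5-208 stand well above it, and Tnnc1-203 and Atp2a2-203 lie far to the right and low.

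Detection followed the reads of the gene. Among annotated NMD models in genes with 1 to 9 Known reads, 98 of 1735 (5.65%) had a read. With more reads the count was 294 of 2660 (11.1%) at 10 to 99 Known reads, 105 of 736 (14.3%) at 100 to 999 and 8 of 48 (16.7%) at 1000 or more. The share of the genes' Known reads on NMD models went the other way, from 4.05% and 3.25% in the lowest class to 1.40% and 1.49%, 1.14% and 1.16%, and 0.120% and 0.136% in the highest. The host genes had a median of 32.5 Known reads, against 18 in genes with an annotated NMD model but no read on it. Of the 6681 NMD models without a read, 4674 were in genes with Known reads.

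By the annotation, the stop lay more than 50 bases before the last junction in 501 of the 504 models with an annotated stop (99.4%, 98.3 to 99.8), which is close to how the type is defined. Among protein-coding models with reads it did in 41 of 15141 (0.271%). The median distance was 329.5 bases, with a range of 49 to 4427. TGA was the stop in 286 models, TAG in 112 and TAA in 106. The median coding sequence was 309 bases, against 1041 in the coding model of the gene, which was chosen without regard to reads. The start codon was shared with that model in 438, and the coding sequence was shorter in 475 of 499.

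**Figure D3:**
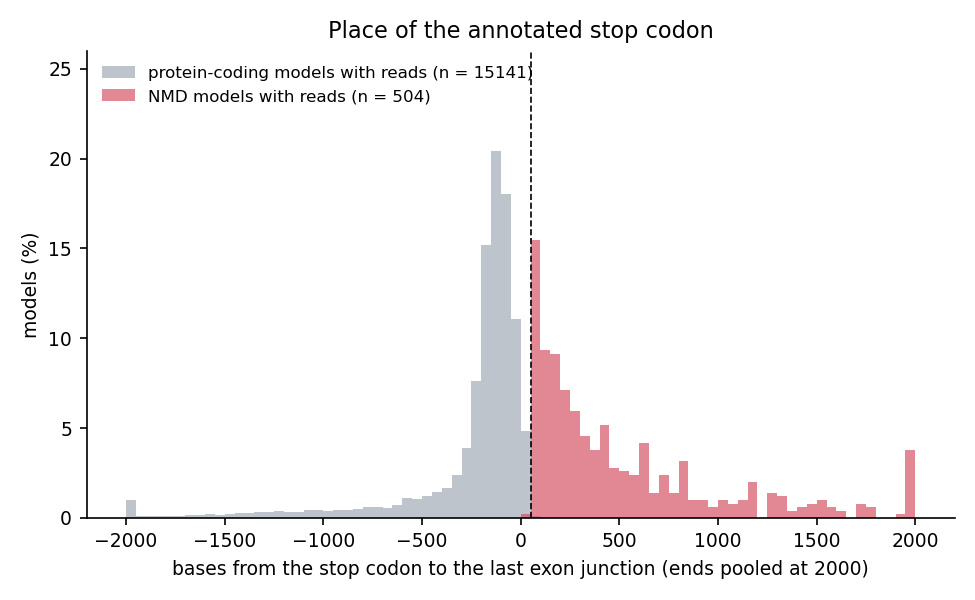
Bases from the annotated stop codon to the last exon junction (x axis, values beyond 2000 pooled at the ends) as a share of models (%, y axis) for 504 NMD models and 15141 protein-coding models with reads; positive values are stops before the junction. The dashed line is at 50 bases, and 501 NMD models and 41 coding models lie beyond it.

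In most models (304, 60.2%) the stop began within the coding sequence of the coding model but was not that model's stop. This class is called another frame below, though the frame itself was not computed. Another 84 stops (16.6%) lay in an exon that the coding model lacks. A further 65 (12.9%) lay in other sequence outside the coding model, 29 (5.74%) were the coding model's own stop and 10 (1.98%) lay in a retained intron. By reads the order differed. The coding model's own stop took 19.5% and 16.2% of the NMD reads and the retained intron 6.29% and 9.76%. Smpx-201 and Ddx5-208 made up most of the reads in these 2 classes, with 163 and 115 reads and with 74 and 107 reads.

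**Figure D4:**
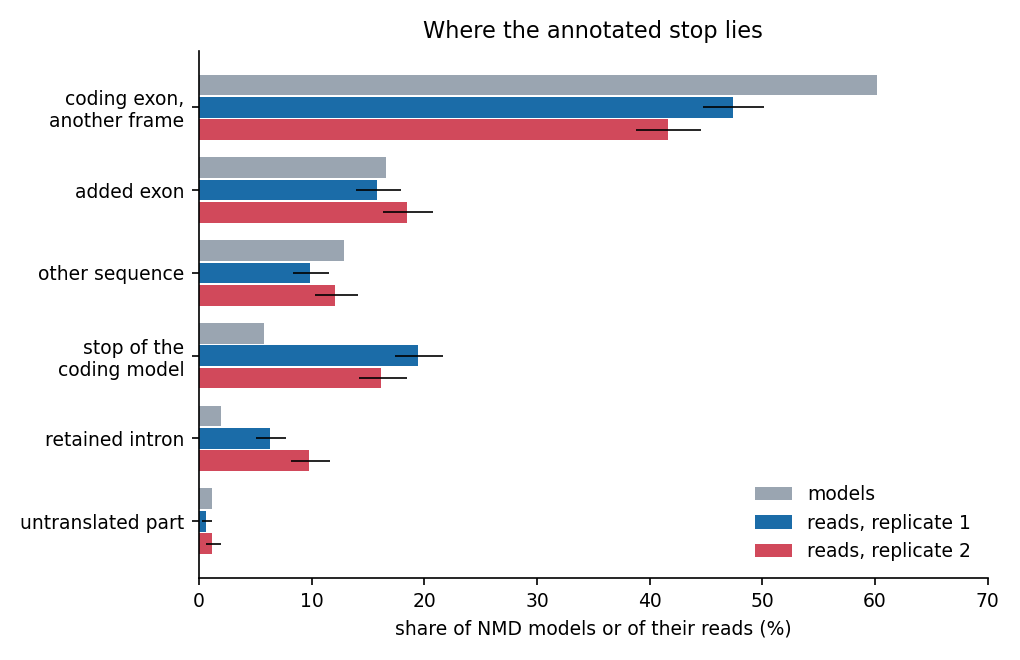
Share (%, x axis) of the 505 NMD models (grey) and of their reads in replicate 1 (blue) and replicate 2 (red) by where the annotated stop lies; bars on the reads are 95% Wilson intervals, and 7 models without a class are not drawn. Stops of the class called another frame are 60.2% of models but 47.4% and 41.6% of reads.

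The splice changes against the coding model were skipped exons in 148 models, another donor in 131, another acceptor in 122 and an added exon in 114, with some models holding more than 1. In models with skipped exons as the only kind of change, the summed skipped length was a multiple of 3 in 3 of 124. Where the only kind was another donor or another acceptor, 1 shift per model was counted. It was a multiple of 3 in 11 of 88 and 7 of 87. With added exons as the only kind, the summed added length was a multiple of 3 in 22 of 83. Skipped exons were present in 29.3% of these models and in 37.3% of NMD models without a read in genes with Known reads, and stops in another frame in 60.2% and 58.8%. The median model length was 1761 bases with reads, 1194 in all models without a read and 980 in those of them in genes with Known reads. Transcript support level 1, the annotation's highest, was given to 266 of the 505 and to 1814 of the 6681 without a read. These differences are described without a test.

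Genes that regulate splicing are known carriers of poison exons. Of 11 SR protein genes with an annotated NMD model and Known reads, 4 had a read on it, beside 452 of 3197 (14.1%) over all protein-coding genes. Srsf3-201, whose added 456-base exon holds an early stop, had 2 and 2 reads of 69 and 48. Srsf9-205 had 2 and 1, Srsf6-201 had 2 and 0, and Srsf2-202 had 0 and 1. Together NMD models took 6 of 412 (1.46%, 0.669 to 3.14) and 4 of 333 (1.20%, 0.468 to 3.05) Known reads of the SR genes. Over all protein-coding genes it was 0.208% and 0.220%. An NMD model is annotated for 3197 of those 11325 genes with Known reads, but for 11 of 12 SR genes. In genes with an annotated NMD model and from 10 to under 100 Known reads, the share was 1.40% and 1.49%. From 100 to under 1000 Known reads it was 1.14% and 1.16%. These values lie within the intervals of the SR genes, so no excess over such genes is shown.

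Among hnRNPs and other splicing factors, 17 of 48 such genes had a read on an NMD model, beside the same 14.1% over all. In genes with an annotated NMD model it was 16.1% at 10 to under 100 Known reads and 19.5% at 100 to under 1000. The list has 113 annotated NMD models in 49 genes, against 7173 in 4565 over all protein-coding genes. What level and annotation add was not tested. With at least 2 reads per model, 9 genes of the list had one, while 270 of all 505 NMD models remained. The percentages are for at least 1 read, and their counterparts at 2 reads were not computed. NMD models of the listed genes took 102 of 2604 Known reads (3.92%, 3.24 to 4.73) and 137 of 2242 (6.11%, 5.19 to 7.18). Without Ddx5 the values were 28 of 2286 (1.22%) and 30 of 1932 (1.55%). Beside them stand 1.40% and 1.49% in genes with an annotated NMD model and 10 to under 100 Known reads. Besides Hnrnpdl-201, Rbmx-205 had 4 and 5 reads of 5 and 11 Known reads of its gene. Several others, such as Rbm39-225 with 3 and 4 reads, had shares of a few percent.

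In genes of abundant heart proteins, NMD models took a smaller share of the reads than the 0.208% and 0.220% over all protein-coding genes. These shares count all genes of a list, with or without an annotated NMD model. One was annotated for 21 of 84 respiratory, 6 of 28 sarcomere and 17 of 79 ribosomal genes. Among all genes with an annotated NMD model and 1000 or more Known reads, NMD models held 0.120% and 0.136%. The counts of genes with a read on an NMD model stand beside 14.1% over all and 8 of 40 (20%) in that class. What annotation and gene level add to the list values was not tested. Respiratory chain and ATP synthase genes had an NMD read in 8 of 20 (40%), with 52 of 88504 (0.0588%) and 28 of 66440 (0.0421%) Known reads. Sarcomere and Z-disc genes had one in 2 of 5 (40%), with 46 of 44608 (0.103%) and 44 of 37727 (0.117%), all of them in Tnnc1 and Myoz2. Cytosolic ribosomal protein genes had one in 5 of 17 (29.4%), with 4 of 12561 (0.0318%) and 8 of 8760 (0.0913%) reads. Fatty acid oxidation genes had one in 0 of 3. Over all 21 genes of that list, 22497 and 18395 reads allow up to 0.0133% and 0.0163%. Within the 3 genes with an annotated NMD model the limit is wider. In calcium handling only Atp2a2-203, of the sarcoplasmic calcium pump gene, had reads, with 2 and 0 of 6821 and 6829.

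The genes of the NMD pathway themselves held no NMD read: 0 of 4 with an annotated NMD model among NMD factors, 0 of 1 in the exon junction complex and 0 of 2 among termination and decay factors. With 14.1% of all such genes carrying one, these 3 lists are too small to be set apart from the rest. With 161 and 172 Known reads over all 15 NMD factors, up to 1.86% and 1.74% is allowed. Within the 4 that have an annotated NMD model the limit is wider. Of these, Ruvbl2 had 17 and 24 Known reads, Smg5 4 and 3, Smg6 1 and 5 and Smg1 2 and 0. The factors were seen in the libraries. Upf1 had 45 and 42 Known reads (73.7 ± 6.71 CPM), and Eif4a3, the helicase core of the exon junction complex, had 76 and 65 (119 ± 3.50 CPM). By the exact binomial test with adjustment over all genes, 0 of the 6 NMD factor genes, 5 exon junction genes and 5 termination and decay genes with at least 10 Known reads were called different between the libraries, beside 0.204% of all genes tested. Without a fold minimum it was also 0, beside 1.01%. At an unadjusted p under 0.05 it was 0 in each list, beside 8.34% of all genes.

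**Figure D5:**
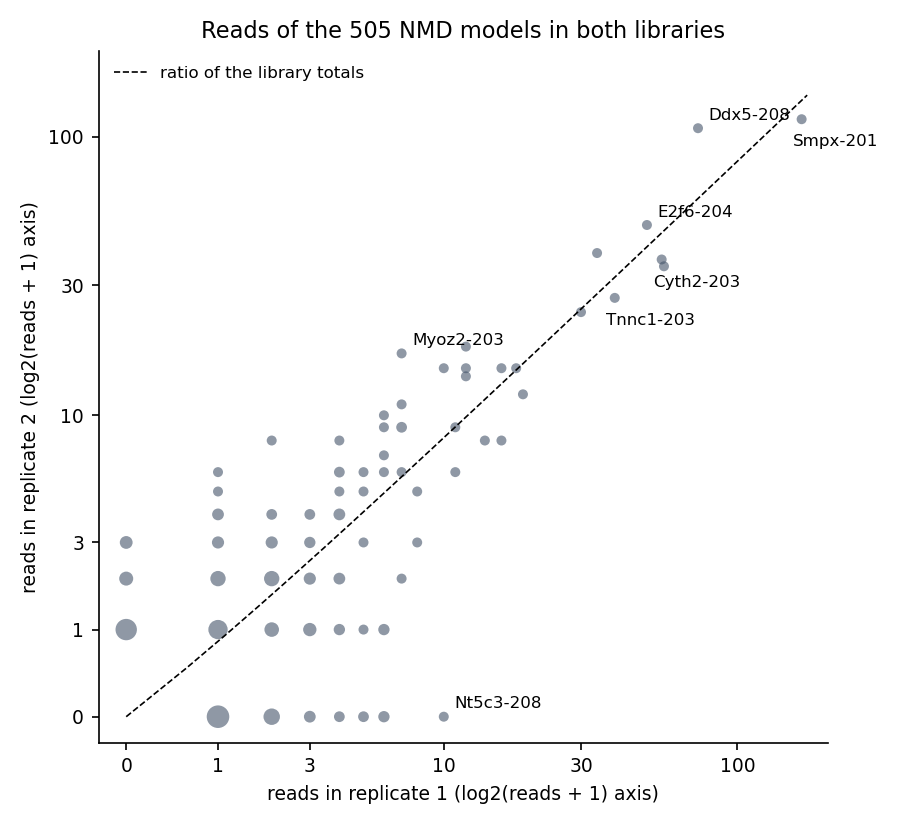
Reads of the 505 NMD models in replicate 1 (x axis) and replicate 2 (y axis), on log2(reads + 1) axes; point size grows with the number of models at that pair of counts, and the dashed line is the ratio of the library totals. Of the 37 models with 10 or more reads in total 33 lie within 2-fold of the line, Nt5c3-208 with 10 and 0 reads does not, and the points along both axes are models seen in 1 library.

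NMD models with several reads were mostly seen in both libraries, and those with 1 read could be seen in only 1. Replicate 1 held 383 of the models, replicate 2 held 332, and 210 (41.6%) were in both. Of the 173 in replicate 1 only, 132 had 1 read, and of the 122 in replicate 2 only, 103 had 1 read. Models with 2 reads in total were in both for 64 of 105, with 3 for 35 of 46, with 4 for 34 of 36 and with 5 or more for 77 of 83. Protein-coding models of the same totals were in both for 696 of 1391, 700 of 951, 654 of 740 and 9873 of 9940. Of the models with at least 5 reads in replicate 1, 38 of 44 (86.4%) had a read in replicate 2, beside 99.4% of protein-coding and 98.0% of retained-intron models. This minimum does not match levels: the median of reads in total was 9 for protein-coding, 2 for NMD and 1 for retained-intron models. With 5 or more reads in total, 257 of 262 retained-intron models were in both libraries. What level adds to the difference was not tested. Of the 20 most read in replicate 1, 15 were among the 20 most read in replicate 2.

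As a description, Pearson's r between the shares of the 226 models in the 2 libraries was 0.906 and Spearman's rho 0.336, with r = 0.811 without the 2 highest shares. The models share a library and its depth, and most have only a few reads. The median absolute difference between the libraries was 1.98 percentage points, and the largest was 24.4. The Wilson intervals overlapped in 224 of 226, the exceptions being Ddx5-208 and Nt5c3-208. Over all annotated models with the same minimum they did not overlap in 18 of 5329 (0.338%), beside 0.885% of the NMD models.

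Levels were then tested between the replicates over all annotated models with at least 10 reads in total, by an exact binomial test, two-sided and conditional on the total, with Benjamini-Hochberg adjustment. Of the 37 NMD models tested, 0 were called at an adjusted p below 0.05 with at least a 2-fold difference, beside 0.158% of the 8215 models tested. At an unadjusted p under 0.05 there were 3 (8.11%, beside 8.02% of all models tested): Ddx5-208, Nt5c3-208 and Myoz2-203. edgeR's exact test with a preset coefficient of variation also called 0. The log2 ratio, replicate 2 over replicate 1, had a median of 0.29 over the 37 and of 0.04 over all models, and 33 of the 37 lay within 2-fold.

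Ddx5-208 was higher in replicate 2, at 199.8 CPM against 113 CPM, a log2 ratio of 0.81 (adjusted exact p = 0.0232), below the fold minimum. Without a fold minimum it was the 1 NMD model past the threshold, where 0.889% of all models were. With DESeq2 size factors its adjusted p was 0.0718, and with edgeR's exact test and preset variation it was 1, so this call is lost there. Nt5c3 encodes a pyrimidine nucleotidase, and Nt5c3-208 had 10 and 0 reads (exact p = 0.00285, adjusted p = 0.184). Nt5c3-201, its coding counterpart, had 27 and 27. Myoz2-203 had a log2 ratio of 1.51 (exact p = 0.0132, adjusted p = 0.404).

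For the share of the gene, 316 NMD models in genes with at least 10 Known reads in each library were tested with Fisher's exact test, and 0 were called, beside 0.0271% of the 7380 models tested. At an unadjusted p under 0.05 there were 6 (1.90%), beside 2.02% of all models tested. The lowest exact p was 0.00204, for Ddx5-208, with an adjusted p of 1. With minimums of 20 and 5 Known reads, or all models as denominator, 0 NMD models were called as well, beside 2 of 5329, 2 of 9229 and 6 of 12262 models tested.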

How the data were processed

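The authors deposited whole-number counts of long reads per transcript model, 1 library each, not normalized, made on mm10 with GENCODE M21 and TALON models, per the file headers and text. The other deposited values, model lengths and exon numbers per the file headers, were not changed. The aligner, versions and filters are not given in the sources used here. Types, starts and ends of the 141862 annotated transcripts, in the file of each library, matched GENCODE M21, with 0 mismatches.

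Known reads are counts on annotated models, and spike-ins were left out. Tests used SciPy 1.17.1, with 0.5 reads added for log2 ratios. Each side of the comparison is 1 library, which gives a quasi-likelihood fit no spread to estimate, so exact tests of the counts were used, and edgeR 4.0.16 and DESeq2 1.42.0 gave alternatives. The tests were tried on simulated libraries first. The coding model of a gene was the APPRIS principal one, then the longest coding sequence. The members and lists were chosen with earlier results of these data known. Named are the 20 most read models, the 15 next highest shares, and listed genes' models. Others, including Tbrg4-211 and the other same-chain models, Tmem234, Lmf1-206 and Atp2a2-203, were chosen after their values were seen.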

Additional observations from a re-analysis of the deposited data

How the results depend on the processing

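Of 79 alternative values, 57 kept their direction and side of the threshold or moved little. Some of the 57 could not change, such as list counts of 0 when models are removed. A reversal could be scored only for the ratio of shares and the log2 ratio of Ddx5-208, and none was seen. The share of Known reads on NMD models was 0.208% and became 0.189% with at least 2 reads per model, 0.180% with intron chains not shared with another transcript, and 0.158% over reads of all models. Without Smpx-201 it was 0.185% and without Ddx5-208 0.193%; these 2 were chosen after seeing the data. The number of models was 270 with at least 2 reads, and 332 to 383 when either replicate was left out. The median share became 4.17% with at least 2 reads, 1.86% over all models and 1.08% in genes with at least 50 Known reads, and 2.05% to 2.12% without either replicate. Stops past the limit were 100% at 40 bases and 95.6% at 60 bases. With no fold minimum, 1 NMD model was past the threshold and 73 models in all, against 13. DESeq2 size factors, no read minimum and edgeR with variation of 0.1 and 0.2 gave 19, 8, 4 and 1 calls over all models, and under each Ddx5-208 was no longer past an adjusted p of 0.05. The cause was not tested. No paired analysis was possible because the labels give 1 group. The depth, 1.53 and 1.87 CPM per read, limits what can be said of the 235 models with 1 read.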
